A study of Homo sapiens with 5 samples.

Results

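The nuclear genes of oxidative phosphorylation were followed across the 5 RNA sequencing libraries of the series. Members were chosen by gene symbol alone: names that begin with NDUFA, NDUFB, NDUFC, NDUFS or NDUFV, the symbols SDHA, SDHB, SDHC and SDHD, and names that begin with UQCR, with COX and a digit, or with ATP5. This gave 108 of the 19716 genes with reads. Complex I accounted for 45 of them, complex II for 4, complex III for 9, complex IV for 25 and complex V for 20, and the rest were 3 antisense RNAs and 2 pseudogenes that carry the name of a member. A mean level of at least 1 TPM (transcripts per 1000000, the read count per transcript length scaled to a fixed sum per library) over the 5 libraries was reached by 102 members, and 6 were below it.

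Oxidative phosphorylation takes place in the inner mitochondrial membrane. Complexes I and II feed electrons from NADH and succinate into the chain, complex III passes them to cytochrome c, complex IV hands them to oxygen, and complex V uses the proton gradient that results to make ATP. Most of the subunits are encoded in the nucleus and imported, a small core set is encoded by mitochondrial DNA, and assembly factors put the parts together without staying in the finished enzyme.

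All libraries came from HEK293T, a cell line of human embryonic kidney origin with the large T antigen of SV40, collected 48 h after transient transfection with 1 ug of plasmid. The control cells had received pUC19, a cloning plasmid that encodes neither dCas9 nor a guide. The other 4 came from cells given 5 guides that target the uPA promoter (the urokinase gene, listed as PLAU) and a fusion of dCas9, a Cas9 that binds DNA without cutting it, with blue fluorescent protein (BFP) and a partner. The partner was the catalytic domain of DNMT1 (dCas9-BFP-DNMT1), which maintains DNA methylation, of DNMT3A (dCas9-BFP-DNMT3A) or DNMT3B (dCas9-BFP-DNMT3B), which set new methylation, or EGFP (dCas9-BFP-EGFP), a fluorescent protein. Each group had 1 library, so no difference between groups below has a replicate check, and the effect of a fusion cannot be told apart from that of the transfection or library it came with. The labels describe sorting for BFP in all 5 groups, yet pUC19 carries no BFP gene, so a difference between the fusions and pUC19 cannot be told apart from a difference in sorting.

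Totals ranged from 26.2 M to 36.1 M reads per library (M, 1000000), and intervals given below cover counting error only, since reads without molecular identifiers are not independent molecules. The row of the methyltransferase in each fusion stood at 14582 TPM for DNMT1, 16745 TPM for DNMT3A and 33141 TPM for DNMT3B in its own library, and none of them was above 175.5 TPM in another library. PLAU stood at 2.48 TPM in the pUC19 library and between 0.0331 and 0.181 TPM in the fusion libraries. Of 9 markers of other cell types, 6 had a row, none of these above 0.882 TPM, and their summed level was between 1.11 and 1.77 TPM per library. Among 6 markers of HEK293T, IRS4 was at 395.9 TPM in the pUC19 library and between 66.3 and 76.5 TPM in the fusions, and NEFM (193 TPM against 34.3 to 60.2) and NEFL (90.7 TPM against 28.9 to 35.6) had the same order, while VIM, KRT18 and KRT8 did not. The libraries thus differed beyond the members in the same direction as several results below. The part of these differences in the members' results was not tested. In bulk RNA, fewer cells with a transcript and less of it per cell cannot be told apart.

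The members were among the abundant transcripts of the cells. A mean of at least 100 TPM was found for 65 of them. Together they held 1.12% of all reads in the DNMT1 fusion library, 0.983% in the DNMT3A fusion, 0.919% in the DNMT3B fusion, 1.06% in the EGFP fusion and 1.23% in pUC19. Their summed level was 25442, 23226, 22422, 24605 and 27422 TPM in the same order, so that pUC19 was highest and the DNMT3B fusion lowest by both measures.

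Subunits and assembly factors occupied different ranges of level. The median of the 75 subunits in the pUC19 library was 245 TPM, against 27.0 TPM for the 16 assembly factors of complexes I and IV. In complex I, mean levels of the subunits ran from 36.7 TPM for NDUFC2 to 696 TPM for NDUFS5, both accessory subunits. Complex II went from 52.6 TPM for SDHD, a membrane anchor, to 268.9 TPM for SDHB, the iron-sulphur subunit. In complex III the lowest subunit was UQCRB (67.6 TPM) and the highest UQCRH (624 TPM), the hinge protein. Complex IV spanned 106.9 TPM for COX6C to 1201 TPM for COX6A1, the highest of all members. In complex V the lowest was ATP5G3 (101.9 TPM), 1 of 3 genes for the same c subunit, and the highest ATP5B (1171 TPM), the catalytic beta subunit.

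**Figure D1:**
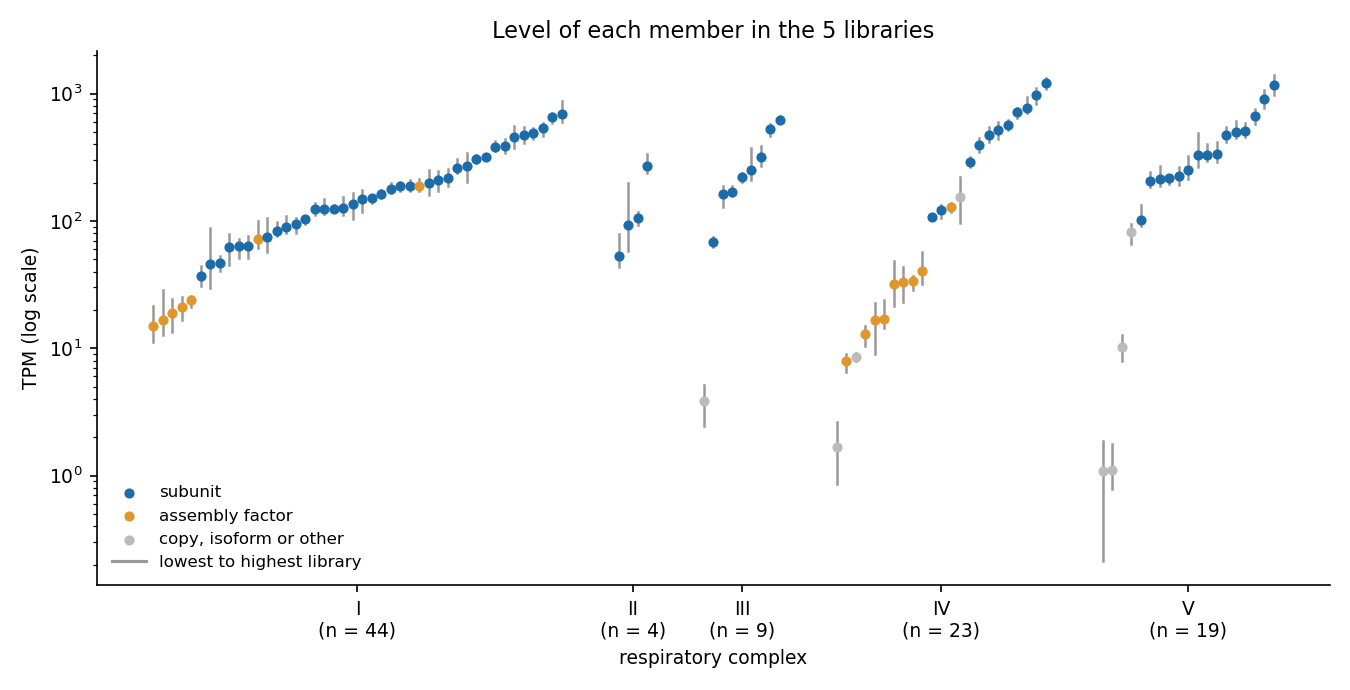
Level in TPM (log scale) of the 99 members of complexes I to V with a mean of at least 1 TPM, ordered by level within each complex. Points are means over the 5 libraries, lines run from the lowest to the highest library, and colours separate subunits, assembly factors and copies or isoforms; the 16 assembly factors run from 7.95 TPM (COX20) to 189 TPM (NDUFAF3).

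Where a subunit has a second, tissue-restricted gene, the common form was the one expressed. COX6B1 had a mean of 566 TPM and the testis form COX6B2 had 8.58 TPM. COX8A was at 473 TPM and COX8C at 0.143 TPM. COX7A2 was at 289 TPM, whereas the muscle form COX7A1 had reads in the EGFP fusion library alone (0.113 TPM). NDUFA4, now counted with complex IV, was at 121.6 TPM, and its hypoxia-associated relative NDUFA4L2 was between 0.862 TPM in the DNMT3A fusion and 2.66 TPM in pUC19. UQCRH was at 624 TPM and its near copy UQCRHL at 3.86 TPM. COX4I1 (713 TPM), COX6A1 and COX7B (979 TPM) were found, while COX4I2, COX6A2 and COX7B2 had no row in the tables used here. The c subunit came mainly from ATP5G2 (508 TPM) and ATP5G1 (328 TPM). Because only reads that mapped to 1 place were counted, levels of genes with close copies, such as UQCRH with UQCRHL or ATP5E with ATP5EP2, may be too low.

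Most members changed little over the 5 libraries. Of the 98 members with a mean of at least 5 TPM, 72 (73.5%) had a highest library less than 1.5 times the lowest, against 44.2% of the 10934 genes at that level, and 7 members (7.14%) reached a ratio of 2, against 18.0%. The median ratio was 1.35 for the members and 1.55 for all genes. These genes share the minimum of 5 TPM but were not matched to the members for level. With fewer reads, a ratio is wider from read sampling alone. The part of level in this contrast was not tested. At the stable end, COX6C stood at 106.6 TPM in the DNMT1 fusion, 108.7 TPM in the DNMT3A fusion, 104.5 TPM in the DNMT3B fusion, 108 TPM in the EGFP fusion and 106.9 TPM in pUC19.

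The first question was which members differed between a fusion library and pUC19. By the study's thresholds, an adjusted p of at most 0.001 and a TPM ratio of at least 2, few did. Here the p came from an exact binomial test on the reads of the 2 libraries with Benjamini-Hochberg adjustment, so it compares these libraries and not the conditions. In the DNMT1 fusion 1 of 107 members was higher (0.935%, against 1.53% of all genes tested) and 3 were lower (2.80%, against 3.63%). In the DNMT3A fusion 2 were higher (1.87%, against 4.40%) and 4 lower (3.74%, against 4.96%). In the DNMT3B fusion 2 were higher (1.87%, against 4.47%) and 5 lower (4.67%, against 4.29%). For the EGFP fusion the numbers were 2 of 108 higher (1.85%, against 2.60%) and 3 lower (2.78%, against 3.10%). These shares were near or below those of all genes, so the counts are no result about the members as a group. When a coefficient of variation of 0.2 between libraries was assumed in place of read sampling alone, 0 members passed in each of the 4 comparisons, beside 0.205%, 0.717%, 0.617% and 0.308% of all genes in the DNMT1, DNMT3A, DNMT3B and EGFP fusions.

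SDHA, the flavoprotein subunit of complex II that oxidises succinate, had the largest ratio of highest to lowest library (3.41) among members with a mean of at least 5 TPM. The gene lies at chr5:218418-257197 on the plus strand (GRCh37). Its level was 74.1 TPM in the DNMT1 fusion, 63.9 TPM in the DNMT3A fusion, 57.8 TPM in the DNMT3B fusion, 73.1 TPM in the EGFP fusion and 197 TPM in pUC19. All 4 fusions were thus close to each other and far below pUC19. The ratio to pUC19 was 0.371 in the EGFP fusion (95% counting interval 0.353 to 0.389) and 0.293 in the DNMT3B fusion (0.277 to 0.310).

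When the 4 fusions were set as 1 group against pUC19, SDHA was also the 1 member of 103 that passed the edgeR quasi-likelihood test. There the spread comes from the 4 fusions, which are different constructs, and the single pUC19 library is assumed to vary like them. The log2 fold change of SDHA was -1.50 (SE 0.202, adjusted p = 0.0255). It was between -1.59 and -1.44 in the 4 fits that left out 1 fusion. All of these keep the same pUC19 library, so they cannot show whether that library is unusual. In the fit of all 5 libraries 0.0937% of all 16001 genes were higher and 0.644% lower, and 0 members were higher. By an unadjusted p under 0.05, 15 members differed. The share of all genes at that setting is not given here, so this count is no result about the members. Of 100 members with an adjusted p from DESeq2, 1 was called higher and 6 lower (adjusted p under 0.05), beside 3.51% and 3.12% of 14745 genes. The total share was thus near that of all genes, with a smaller share higher and a larger share lower. This difference was not tested. SDHA has near-identical copies, which moved in different ways. SDHAP1 was between 4.48 and 7.27 TPM in the fusions and at 7.80 TPM in pUC19, and SDHAP3 between 6.91 and 8.34 TPM and at 21.4 TPM, both highest in pUC19 like SDHA. SDHAP2 (4.04 to 8.16 TPM against 6.46 TPM) and LOC220729 (11.6 to 16.1 TPM against 15.9 TPM) overlapped with pUC19. How many SDHA reads were dropped as ambiguous is unknown, so its level is uncertain.

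Of the other complex II subunits, SDHD stood at 43.5, 43.8, 46.2 and 50.4 TPM in the DNMT1, DNMT3A, DNMT3B and EGFP fusions and at 79.0 TPM in pUC19. SDHB was between 238 and 261 TPM in the fusions and at 333 TPM in pUC19, and SDHC between 93.3 and 113.6 TPM and at 117 TPM. Each of the 4 subunits was therefore highest in pUC19. SDHD did not pass the edgeR test (log2 fold change -0.73, SE 0.194, adjusted p = 0.111). SDHAF1, an assembly factor of complex II that the name rule does not take in, had the same order with 4.18 to 6.83 TPM against 17.7 TPM. It was named after its values were seen (edgeR adjusted p = 0.0627). SDHAF2 did not have this order. It was at 77.98 and 66.36 TPM in the DNMT3A and DNMT3B fusions, 47.3 and 49.5 TPM in the DNMT1 and EGFP fusions and 51.98 TPM in pUC19 (log2 fold change 0.26, edgeR adjusted p = 0.672). Of the 31 assembly factors outside the name rule, over all complexes, 15 were highest in pUC19. The share among all genes with a mean of at least 1 TPM was 32.7%, and this difference was not tested. SDHAF1 alone is no result about assembly factors as a group.

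In complex I, NDUFB6, an accessory subunit of the membrane arm, was at 37.4, 31.9, 29.9 and 41.3 TPM in the 4 fusions, in the order above, and at 88.1 TPM in pUC19. NDUFAF4, an assembly factor, was at 12.7, 16.0, 12.8 and 13.6 TPM and at 28.9 TPM in pUC19. Neither passed the edgeR test over the 4 fusions (log2 fold change -1.27, SE 0.239, adjusted p = 0.0540 for NDUFB6 and -1.02, SE 0.218, adjusted p = 0.0703 for NDUFAF4). NDUFB6 was called against pUC19 by the study's rule in all 4 fusions and NDUFAF4 in 3, with the DNMT3A fusion outside the rule. With GC and length trends removed, NDUFAF4 was under a ratio of 2 in the DNMT1, DNMT3B and EGFP fusions (log2 ratios -0.91, -0.90 and -0.91) and so was NDUFB6 in the EGFP fusion (-0.94). NDUFAF6, another assembly factor, was between 11.1 and 15.7 TPM in the fusions and at 21.3 TPM in pUC19, and NDUFC1 between 56.9 and 76.0 TPM and at 105.6 TPM.

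In complex III, UQCRC2, a core subunit, was at 235, 208, 209 and 217 TPM in the fusions and at 374 TPM in pUC19 (edgeR log2 fold change -0.73, SE 0.184, adjusted p = 0.0973). In complex V, ATP5G1 was at 273, 298, 266 and 313 TPM and at 492 TPM in pUC19 (log2 fold change -0.72, SE 0.179, adjusted p = 0.0932). The other genes for the c subunit, ATP5G2 and ATP5G3, were also highest in pUC19, at 591 and 133 TPM, against 455 to 534 TPM and 90.7 to 98.3 TPM in the fusions. Summed over the 3 genes, the c subunit transcripts in the fusions were between 68.9% and 77.8% of their level in pUC19.

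Complex IV held members that moved both ways. COX19, an assembly factor that handles copper in the intermembrane space, was at 9.06 TPM both in the DNMT1 fusion and in pUC19, and at 21.5, 20.7 and 22.6 TPM in the DNMT3A, DNMT3B and EGFP fusions. It passed the study's rule in those 3 libraries, and the DNMT1 fusion stood with pUC19. COX14, an early assembly factor, ran from 21.4 TPM in the DNMT3B fusion to 33.6 TPM in the EGFP fusion and was at 48.2 TPM in pUC19, and it was called in the DNMT3B fusion alone. NDUFA4L2 was called in the DNMT3A fusion alone, on 14 reads against 54 (ratio 0.325, 95% counting interval 0.166 to 0.592), and fell short of a ratio of 2 with a pseudocount of 1 TPM.

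NDUFB2-AS1, an antisense RNA at the locus of the complex I subunit NDUFB2, was the member called higher by the study's rule in all 4 fusions, although the EGFP fusion fell short of a ratio of 2 with a pseudocount of 1 TPM. It was at 7.89, 7.76, 7.97 and 7.36 TPM in the fusions and at 3.31 TPM in pUC19. NDUFB2 itself was at 132.8, 138.3, 139.7 and 103.9 TPM and at 165.8 TPM in pUC19. Whether the counting used strand is not stated, so reads of the antisense RNA and of NDUFB2 cannot be told apart where they overlap. NDUFB2-AS1 did not pass the edgeR test over the 4 fusions (log2 fold change 1.28, SE 0.312, adjusted p = 0.0914), nor did COX19 (1.06, SE 0.424, adjusted p = 0.234). The members with the next smallest p among those with a positive value were ATP5SL (0.43, adjusted p = 0.326), COX10 (0.34, adjusted p = 0.399) and UQCRHL (0.83, adjusted p = 0.466).

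**Figure D2:**
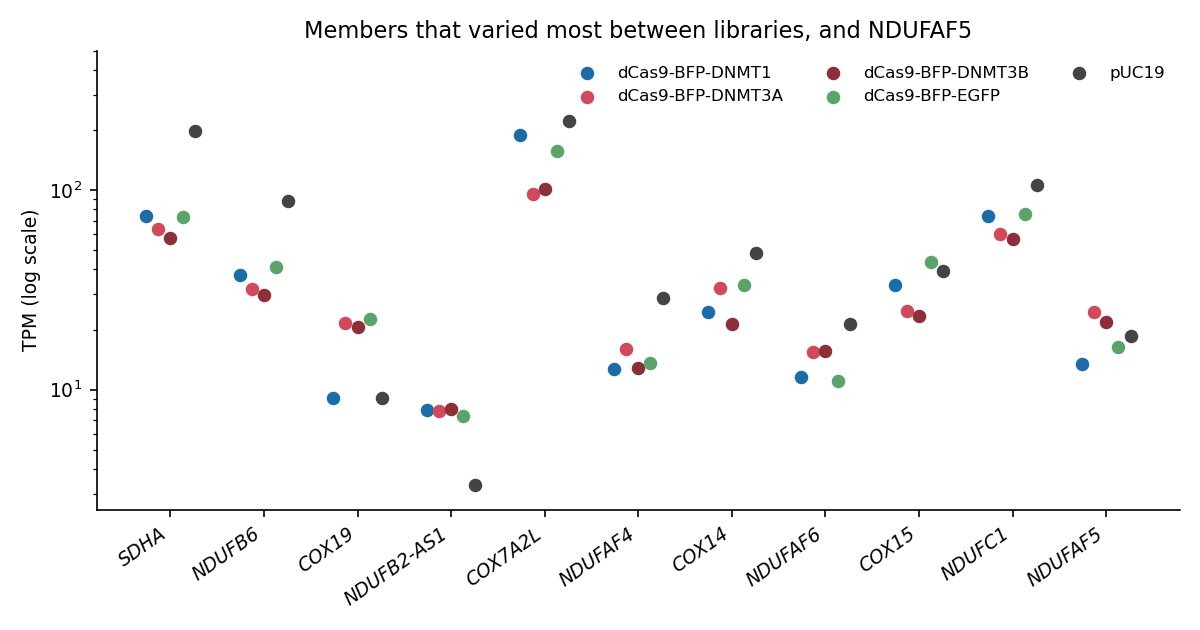
Level in TPM (log scale) in each of the 5 libraries for the 10 members with the largest ratio of highest to lowest library among those with a mean of at least 5 TPM, and for NDUFAF5. Each point is 1 library; pUC19 is the highest for SDHA, NDUFB6, COX7A2L, NDUFAF4, COX14, NDUFAF6 and NDUFC1 and the lowest for COX19 and NDUFB2-AS1.

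Small differences were more common among the members than calls, and most were in 1 direction. A ratio of at least 1.5 to pUC19, with no test, was reached by 17 members in the DNMT1 fusion, 20 in the DNMT3A fusion, 24 in the DNMT3B fusion and 20 in the EGFP fusion. Among the 102 members with a mean of at least 1 TPM, 3 were higher and 12 lower in the DNMT1 fusion (2.94% and 11.8%, against 7.05% and 16.2% of all genes at that level). In the DNMT3A fusion 2 were higher and 15 lower (1.96% and 14.7%, against 16.2% and 16.0%). In the DNMT3B fusion 3 were higher and 16 lower (2.94% and 15.7%, against 16.7% and 14.8%). In the EGFP fusion 4 were higher and 12 lower (3.92% and 11.8%, against 11.7% and 12.8%). The shares of lower members were thus close to those of all genes or smaller, and the shares of higher members were smaller.

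The medians of the members lay below those of all genes. The median log2 ratio to pUC19 was -0.19 in the DNMT1 fusion, -0.22 in the DNMT3A fusion, -0.31 in the DNMT3B fusion and -0.16 in the EGFP fusion, while the medians over all genes were -0.14, -0.02, -0.01 and -0.003. For the DNMT1 fusion most of the value was a shift of all genes, and with TMM scaling the 2 medians became -0.06 and -0.01. The 4 comparisons share the pUC19 library. In the edgeR fit of the 4 fusions against pUC19, 75 of 103 members were below 0, beside 47.6% of all genes tested. The median there was -0.14 for the members and 0.03 for all genes. With a GC and length offset these medians were -0.07 and 0.05, and in the EGFP fusion alone the median of the members was -0.06 once GC and length trends were removed. A higher level in pUC19 than in each of the 4 fusions was found for 59 of 102 members (57.8%, against 32.7% of all genes with a mean of at least 1 TPM), and a lower level for 11 (10.8%, against 23.7%).

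The complexes differed in these medians. Complex II, with 4 members, had the lowest, between -0.67 in the DNMT3A fusion and -0.52 in the EGFP fusion, and complex V followed in the DNMT3A fusion (-0.41), the DNMT3B fusion (-0.37), the DNMT1 fusion (-0.27) and the EGFP fusion (-0.19). Complex I was between -0.31 and -0.18. Complex IV was between -0.19 in the DNMT3B fusion and 0.01 in the EGFP fusion. Its summed subunits stood at 100.6% of pUC19 in the DNMT1 fusion, 92.8% in the DNMT3A fusion, 89.3% in the DNMT3B fusion and 97.8% in the EGFP fusion. Complex IV held 6 of the 11 members that were lowest in pUC19. These were 26.1% of its 23 members, against 23.7% of all genes with a mean of at least 1 TPM. Highest there were 9 of its members (39.1%, against 32.7%). These shares were near those of all genes, so the counts are no result about complex IV. Differences between complexes were not tested.

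**Figure D3:**
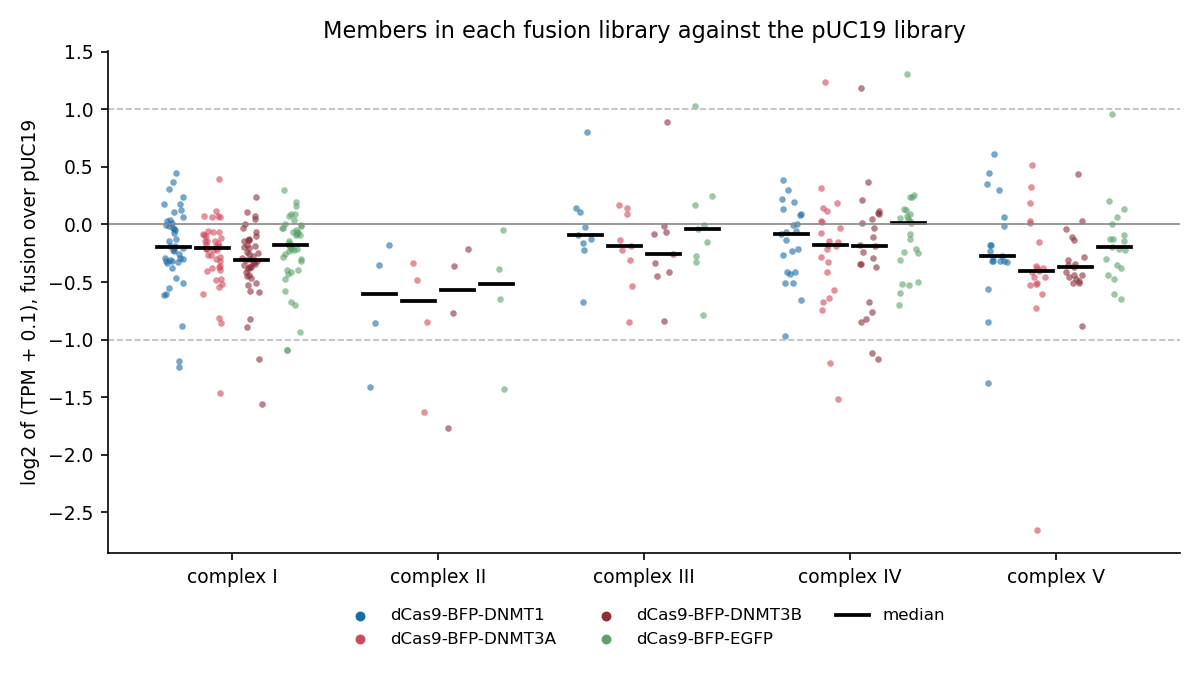
Log2 ratio of TPM + 0.1, fusion over pUC19, for the members of each complex with a mean of at least 1 TPM. Points are members, black bars are medians, dashed lines mark a ratio of 2 either way, and most points lie between these lines and below 0; the lowest point, at -2.66, is ATP5EP2 in the DNMT3A fusion with 1 read against 11.

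The second question was whether the fusions with a de novo methyltransferase domain differed from the others. DNMT3A and DNMT3B were compared with DNMT1 and EGFP by the edgeR quasi-likelihood test over the 4 fusion libraries, which all carried the guides. The pairs are different constructs and not replicates. Of 103 members tested, 1 was higher, beside 6.90% of all 15332 genes, and 2 were lower, beside 4.15%.

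COX7A2L, a relative of the COX7A subunits that joins complexes III and IV into a supercomplex, was at 95.8 TPM in the DNMT3A fusion and 101.7 TPM in the DNMT3B fusion, against 190.1 TPM in the DNMT1 fusion, 157 TPM in the EGFP fusion and 221 TPM in pUC19. Both de novo fusions were below the other 3 libraries without overlap. COX7A2L was called against pUC19 by the study's rule in the DNMT3A and DNMT3B fusions alone. The log2 fold change between the pairs of fusions was -0.88 (SE 0.160, adjusted p = 0.0123). COX15, which makes heme A for complex IV, was at 24.7 and 23.2 TPM in the DNMT3A and DNMT3B fusions, against 33.6 TPM in the DNMT1 fusion, 43.4 TPM in the EGFP fusion and 39.4 TPM in pUC19 (log2 fold change -0.73, SE 0.132, adjusted p = 0.0118). NDUFAF5, an assembly factor that hydroxylates a core subunit of complex I, was at 24.5 and 21.9 TPM, against 13.4 TPM in the DNMT1 fusion, 16.4 TPM in the EGFP fusion and 18.6 TPM in pUC19 (log2 fold change 0.59, SE 0.159, adjusted p = 0.0457). All 3 calls were lost when the DNMT3A or the DNMT3B fusion was left out, which leaves that arm with 1 library: the adjusted p was then 0.179 and 0.177 for COX15, 0.204 and 0.128 for COX7A2L, and 0.408 and 0.220 for NDUFAF5.

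The next members by p were NDUFS1, a core subunit of complex I with iron-sulphur clusters (80.3 and 82.2 TPM in the DNMT3A and DNMT3B fusions against 100.5 and 105.3 TPM in the DNMT1 and EGFP fusions, log2 fold change -0.40, SE 0.115, adjusted p = 0.0563), UQCRQ of complex III (142 and 128.8 TPM against 189 and 171 TPM, -0.47, SE 0.138, adjusted p = 0.0571) and NDUFA3 of complex I (422 and 408 TPM against 545 and 514 TPM, -0.41, SE 0.132, adjusted p = 0.0771). On the positive side they were NDUFAF6 (0.40, adjusted p = 0.185), COX19 (0.39, adjusted p = 0.422), ATP5SL (0.17, adjusted p = 0.460) and NDUFB2 (0.17, adjusted p = 0.567). None of these 7 passed the threshold.

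For fits that leave out 1 fusion, the share of all genes by direction is not given here. Their counts are thus no result about the members. The count of members called depended on which libraries entered. It was 3 with all 4 fusions and 6 without the DNMT1 fusion (1 higher, 5 lower). Without the DNMT3A fusion and without the DNMT3B fusion it was 0 each, and without the EGFP fusion it was 31 (2 higher, 29 lower). The same order held for all genes, with 1694 calls from all 4 fusions, 3536 without DNMT1, 18 without DNMT3A, 53 without DNMT3B and 3850 without EGFP. Of 98 members with an adjusted p from DESeq2, 1 was higher and 4 were lower, beside 10.6% and 5.94% of 12998 genes, so both shares were below those of all genes.

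As a group the members were slightly lower in the de novo pair. Below 0 were 89 of 103 members, beside 51.3% of all genes tested. The median log2 fold change was -0.17, against -0.01 over all genes. It was -0.10 without the DNMT1 fusion and -0.24 without the EGFP fusion. Both de novo fusions were lower than both others for 47 of 102 members (46.1%, against 23.3% of all genes with a mean of at least 1 TPM) and higher than both for 6 (5.88%, against 34.9%). Of the 75 subunits, 72 were below 0 with a median of -0.18, while 7 of 16 assembly factors were below 0 with a median of 0.03. The subunits were also shorter, with a median transcript length of 921 nt against 2315 nt for the assembly factors. The part of length in this contrast was not tested. Against the EGFP fusion alone, the median log2 ratio of the members was -0.08 in the DNMT3A fusion and -0.11 in the DNMT3B fusion, with 0.001 and 0.007 over all genes, and for DNMT1 over EGFP it was 0.01, with -0.13 over all genes.

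Transcript length moved with this difference. The members are short, with a median of 1153 nt against 2981 nt for all genes with a mean of at least 1 TPM, and their GC content was similar (47.8% against 49.0%). Over all 767 genes under 1000 nt the median log2 fold change between the pairs of fusions was -0.11, with 65.1% below 0. For the 46 members of that length it was -0.16, with 42 below 0. Among 3079 genes of 1000 to 2000 nt the median was -0.01, and for the 33 members it was -0.16. In the 2000 to 4000 nt range the medians were 0.03 for 6399 genes and -0.13 for 18 members, and above 4000 nt they were -0.04 for 5087 genes and -0.21 for 6 members. When the trend of each library with length entered the fit as an offset, the median of the members went from -0.17 to -0.06 and that of all genes to 0.02, and with GC and length together it was -0.09. For the members under 1000 nt it became -0.0003, with 23 of 46 below 0, beside 42.8% of all genes of that length. It stayed at -0.09 for members of 1000 to 2000 nt and at -0.15 for members of 2000 to 4000 nt. With this offset 1 member was called higher and 4 lower, beside 9.14% and 4.57% of all genes, again no more than among all genes. What part length has in the result beyond these values was not tested. The trend also touched the comparison with pUC19, where its removal took the median of the DNMT3B fusion from -0.31 to -0.17.

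A coverage value, in percent, stands beside each gene in the authors' tables without a definition, and is taken here as the share of the transcript reached by reads. It set a few members further apart. Among 93 members with at least 100 reads per kb in every library, 7 (7.53%, against 3.61% of 8975 genes at that density) had a coverage at least 10 points higher in pUC19 than in any fusion, and 0 the reverse (against 0.0557%). NDUFAF5 had a coverage of 86.4% in pUC19 and of 57.6%, 47.5%, 47.4% and 56.99% in the DNMT1, DNMT3A, DNMT3B and EGFP fusions, although its read density in the DNMT3A fusion (312 reads per kb) was as high as in pUC19 (296). Its gap of 28.8 points was the third largest of the 8975 genes. For NDUFB6 the coverage was 82.5% in pUC19 and 51.6%, 47.9%, 55.9% and 56.4% in the fusions, at 337 to 466 reads per kb against 1405.5, and this gap was the fifth largest. The others were UQCRB, NDUFA9, SDHD, NDUFA10 and NDUFAF4. Each of these had more reads per kb in pUC19 than in any fusion, SDHD for example 1259 against 521 to 569. The pUC19 library also had the most reads, and coverage rises with the number of reads. The part of read density in these gaps was not tested. In contrast, SDHA was covered to between 95.2% and 96.1% in all 5 libraries, and COX7A2L to between 96.0% and 98.8%. Over all genes at 10 to 20 reads per kb the mean coverage was between 46.8% and 47.2% in the 3 methyltransferase fusions, 42.1% in the EGFP fusion and 41.7% in pUC19, so the order of the libraries was not the same there. Which parts of the transcripts lacked reads cannot be read from these tables.

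Since the methyltransferase domains act on DNA and promoters of respiratory genes are known for a few recurring sites, the promoters of the members were read from RefSeq (GRCh38.p14). A promoter was taken as the 250 bases before the start of the gene, and 86 members had an entry. A site for NRF1, nuclear respiratory factor 1, spelled GCGCATGC on either strand, was found in 14 of them (16.3%, against 2.81% of all 27305 promoters and 4.81% of the 10963 whose gene had a mean of at least 1 TPM). The core of the ETS family, to which the respiratory regulator GABP belongs, spelled CCGGAAG, was found in 20 (23.3%, against 8.82% and 15.7%). The YY1 letters AAGATGGC were found in 3 (3.49%, against 1.37% and 1.82%). None of the 3 motifs contains another. A match is a description of the letters and not a measured site. The median number of CpG in the 250 bases was 18.5 for the members, 11 for all promoters and 21 for those of genes with a mean of at least 1 TPM.

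The promoters of the 4 members called by an edgeR test are shown because these are the members whose level differed past the threshold, 5′ to 3′ on the strand of the gene, with any of the 3 motifs in capitals. They lie at chr5:218070-218319 (plus strand) for SDHA, chr2:42361218-42361467 (minus strand) for COX7A2L, for which the first of 2 listed starts was taken, chr10:99732128-99732377 (minus strand) for COX15 and chr20:13784778-13785027 (plus strand) for NDUFAF5, all on GRCh38.p14.
SDHA: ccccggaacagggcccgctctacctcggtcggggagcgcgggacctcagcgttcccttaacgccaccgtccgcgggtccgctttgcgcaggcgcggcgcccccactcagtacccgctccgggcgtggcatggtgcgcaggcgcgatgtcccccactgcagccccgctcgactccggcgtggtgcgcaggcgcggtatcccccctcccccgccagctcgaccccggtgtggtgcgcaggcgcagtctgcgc
COX7A2L: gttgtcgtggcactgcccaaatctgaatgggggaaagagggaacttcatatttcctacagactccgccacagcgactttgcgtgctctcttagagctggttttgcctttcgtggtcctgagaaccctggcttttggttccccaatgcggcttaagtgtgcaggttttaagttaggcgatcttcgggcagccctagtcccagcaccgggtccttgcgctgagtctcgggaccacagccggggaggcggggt
COX15: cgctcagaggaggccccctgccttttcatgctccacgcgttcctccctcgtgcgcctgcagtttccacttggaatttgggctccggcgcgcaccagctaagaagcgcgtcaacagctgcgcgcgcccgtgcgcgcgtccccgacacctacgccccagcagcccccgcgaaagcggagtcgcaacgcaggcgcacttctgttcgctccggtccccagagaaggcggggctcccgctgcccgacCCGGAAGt
NDUFAF5: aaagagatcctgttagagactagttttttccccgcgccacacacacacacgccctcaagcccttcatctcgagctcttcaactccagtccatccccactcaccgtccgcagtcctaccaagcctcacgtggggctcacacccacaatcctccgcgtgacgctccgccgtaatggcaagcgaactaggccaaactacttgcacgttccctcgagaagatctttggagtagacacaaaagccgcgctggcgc

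The SDHA promoter had the most CpG (35 in 250 bases), followed by COX15 (31), NDUFAF5 (18) and COX7A2L (13). COX15 held the ETS letters just before its start, and the other 3 held none of the 3 exact spellings in this window. Variants of these spellings were not searched.

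Genes that work with the members were taken from lists. Of 5 subunits that the name rule does not take in, 0 passed either edgeR test (for the highest, USMG5 of complex V and CYC1 of complex III, the log2 fold changes between the pairs of fusions were -0.40, adjusted p = 0.0981, and -0.01, adjusted p = 0.972). CYC1 was between 358 and 379.6 TPM in the fusions and at 472 TPM in pUC19. Of 31 other assembly factors 0 passed, while DESeq2 called 1 of them higher in the de novo pair (ATPAF1 of complex V and COA4 of complex IV, the highest, had -0.24, adjusted p = 0.244, and 0.11, adjusted p = 0.612). Of 17 genes of the TCA cycle and pyruvate dehydrogenase, 0 passed against pUC19 and 1 was lower in the de novo pair: OGDH, a subunit of the 2-oxoglutarate dehydrogenase complex, at 56.8 and 61.0 TPM against 73.7 and 85.8 TPM (log2 fold change -0.49, SE 0.117, adjusted p = 0.0317). The median of that list in the de novo pair was -0.19, beside -0.17 for the members. The OGDH call was lost without the DNMT3A fusion, without the DNMT3B fusion and without the filter on low counts. Of the 17 genes on the list, 12 were highest in pUC19, beside 32.7% of all genes with a mean of at least 1 TPM. This difference was not tested.

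Among 17 regulators of respiratory genes and of mitochondrial DNA, 0 passed against pUC19 in either direction. In the de novo pair 5 were higher and 1 was lower, beside the 6.90% and 4.15% of all genes given above, and the difference from the members was not tested. POLRMT, the mitochondrial RNA polymerase, was at 110.4 and 103.4 TPM in the DNMT3A and DNMT3B fusions against 54.1 and 65.4 TPM in the DNMT1 and EGFP fusions (log2 fold change 0.79, SE 0.121, adjusted p = 0.00750). C10orf2, the mitochondrial DNA helicase, was at 67.9 and 63.6 TPM against 31.9 and 42.3 TPM (0.78, SE 0.140, adjusted p = 0.0117), and PPRC1, a coactivator, at 85.8 and 130.1 TPM against 57.1 and 58.9 TPM (0.84, SE 0.177, adjusted p = 0.0204). LRPPRC, which stabilises mitochondrial mRNA, was at 88.0 and 96.2 TPM against 138.4 and 126 TPM (-0.58, SE 0.131, adjusted p = 0.0252). The remaining 2 that rose were TFB2M and NRF1. NRF1, picked out after its values were seen because its site was searched above, was at 57.3 and 48.0 TPM against 19.1 and 34.1 TPM (0.95, SE 0.215, adjusted p = 0.0262), with 19.7 TPM in pUC19. The median log2 fold change of the 17 regulators was 0.11, with -0.17 for the members in the same fit. None of the 6 regulators was called when the DNMT3A or the DNMT3B fusion was left out.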

How the data were processed

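RNA from HEK293T cells, per the labels sorted for BFP (in doubt for pUC19, which carries no BFP gene), with 1 library per group, was made into poly(A) libraries and sequenced on an Ion Proton. The authors filtered reads, aligned them with tmap to RefSeq RNA of hg19 (GRCh37) and kept uniquely mapped reads. The tmap version is not given in the sources used here. The read counts per gene deposited by the authors are whole numbers, not normalized. The TPM deposited by the authors are counts per length scaled to a fixed sum, which recomputing from counts and lengths gave again. The percent coverage deposited by the authors is not defined by them. Genes without reads have no row in a table and were set to 0. Unique counting lowers genes with near-identical copies.

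Groups were taken from the sample titles. Members and gene lists were chosen with earlier results of these data known. Each fusion was compared with pUC19 by a two-sided exact binomial test given the library totals (scipy 1.17.1), with Benjamini-Hochberg adjustment over all genes with a read. Calls needed an adjusted p of at most 0.001 and a fold of at least 2, the study's thresholds, on TPM + 0.1, which understates changes of low genes. edgeR 4.0.16 (R 4.3.3; TMM, filterByExpr, quasi-likelihood F-test, adjusted p under 0.05) was used on the counts over all genes, first with pUC19 against the 4 fusions and then with the pair DNMT3A and DNMT3B against the pair DNMT1 and EGFP. The edgeR and DESeq2 p-values measure the spread between these libraries. Those of the exact binomial test and the counting intervals (95%, exact) cover the sampling of reads only. Medians are over members with a mean of at least 1 TPM, except in the edgeR fits, where they are over the genes tested. A floor of 3 reads was 0.0830 to 0.114 per 1000000 reads.

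Named were members called against pUC19, in each edgeR fit the 5 lowest p-values per direction, the 10 with the widest range, the highest and lowest subunit per complex, isoform groups, and from each other list the genes called (at most 3 per direction) or else the 2 highest. Alternatives were a pseudocount of 1 TPM, TMM, a minimum of 1 TPM, loess trends (span 0.3) on length or on GC and length removed, an assumed coefficient of variation of 0.2, other thresholds, DESeq2 1.42.0, median-ratio size factors, no filter, each fusion left out and, chosen after seeing the data, totals without the methyltransferase rows. Positions are from GENCODE v44 on GRCh37 and promoters from RefSeq on GRCh38.p14. The scripts were tested on simulated counts. Rows without a symbol (36) held at most 0.00581% of the reads of a library.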

Additional observations from a re-analysis of the deposited data

Results flagged for a closer look

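In a test of the difference between the de novo pair and the other fusions, 3 members were singled out. The log2 fold change of DNMT3A and DNMT3B over DNMT1 and EGFP was -0.73 for COX15, -0.88 for COX7A2L and 0.59 for NDUFAF5 (edgeR quasi-likelihood test, Benjamini-Hochberg adjusted p = 0.0118, 0.0123 and 0.0457). COX15 and COX7A2L were lower in both de novo fusions than in the other 3 libraries, and NDUFAF5 was higher in both. All 3 calls were lost without the DNMT3A fusion and without the DNMT3B fusion. The coverage of NDUFAF5 was 47.5% and 47.4% in the de novo fusions, 57.6% and 56.99% in the DNMT1 and EGFP fusions and 86.4% in pUC19, and the part of this in its level was not tested.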

How the results depend on the processing

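No paired analysis was possible because each group had 1 library. Of the results that answer a comparison, 100 values under an alternative were the same, 4 moved, 12 were stronger and 8 weaker. Here a count was taken as the same within a factor of 1.5, and a median within 0.1 on the log2 scale. Of the values of single genes, 158 were the same and 36 weaker. None changed direction. With TMM scaling the median of the members in the DNMT1 fusion was -0.062. In the DNMT3B fusion it was -0.17 with the length trend removed and -0.13 with GC and length trends removed. An assumed coefficient of variation of 0.2 left 0 calls in each of the 4 fusions. A fold of 1.5 in place of 2 gave 13 in the DNMT1 fusion, 16 in the DNMT3A fusion, 17 in the DNMT3B fusion and 12 in the EGFP fusion. The share of all genes called at that fold is not given here, so these counts are no result about the members. In the EGFP fusion a pseudocount of 1 TPM left 12 members at 1.5-fold (from 20), and removing GC and length trends left 3 calls (from 5). Against pUC19 the edgeR count of 1 became 7 with DESeq2, 2 without the filter on low counts and 2 without the methyltransferase rows, an alternative chosen after seeing the data. Over all genes 118 calls became 977, 252 and 139 in the same order. Between the pairs of fusions the count of 3 became 5 with DESeq2, 5 with the length offset and 6 with the GC and length offset. Over all genes 1694 calls became 2146, 2102 and 2226 in the same order. The median of the members became -0.064 with the length offset. Leaving out 1 fusion in turn put that median between -0.24 and -0.10. Leaving out 1 fusion in turn gave 0 to 31 calls: 6 without DNMT1, 0 without DNMT3A, 0 without DNMT3B and 31 without EGFP. The shares of all genes are not given for these counts, so they are no result about the members. The causes were not tested. SDHA was called in every alternative of the fit against pUC19. NDUFAF5 was also lost without the filter (adjusted p = 0.0631). With 1 library per group no difference has a replicate check, and depth limits the 6 members under 1 TPM and others with few reads, such as ATP5EP2 (1 to 11 reads), ATP5L2 (7 to 16), NDUFA4L2 (14 to 54) and UQCRHL (19 to 31).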
